A study of Mus musculus with 18 samples.

Results

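The genes described here are 38 genes of autophagy, mitophagy and the lysosome, of 26599 genes in the RNA table. They were taken by name: 37 were found under their current symbol, and Tfeb was found through its Ensembl ID under the older symbol Tcfeb. The cells were MEL, a line of transformed red cell precursors from mouse erythroleukemia that resumes maturation and fills with hemoglobin under dimethyl sulfoxide (DMSO). The compared groups were cells after 5 days in 2% DMSO (day 5) and untreated cells (day 0), with 2 biological replicates of stranded RNA-seq each, per the labels. All 4 libraries come from this 1 transformed line, and the labels name no genetic change in either group. Per the labels most but not all day 5 cells made hemoglobin, so each day 5 library is a mixture.

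Autophagy wraps cell contents in a growing double membrane, the phagophore, which closes and fuses with the lysosome, where the contents are broken down. A kinase complex starts the process, a lipid kinase complex marks the membrane, and a pair of ubiquitin-like systems attach the ATG8 proteins (LC3 and GABARAP) to lipid. Receptors such as p62 then tie cargo to the ATG8 proteins. Red cell precursors use mitophagy, the autophagy of mitochondria, to clear these organelles as they mature, and Bnip3l (also called Nix) is the receptor best known for this in mouse reticulocytes.

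The libraries carried erythroid RNA on both days, along with some genes that also mark megakaryocytes. Of 10 erythroid markers, 10 were detected on day 5 and 8 on day 0, at 1 FPKM or more in both libraries, where FPKM are fragments scaled to transcript length and to library size. Their summed level was 25865 to 30430 FPKM on day 5 and 1297 to 1847 FPKM on day 0. Of 10 monocyte, macrophage and neutrophil markers, which are of interest because those cells are rich in lysosomes, 0 were detected on day 5 and 1, Fcgr1, on day 0. Their summed level was 1.02 to 2.24 FPKM on day 5 and 2.72 to 6.61 FPKM on day 0, and 7 of the 10, among them Csf1r, Itgam, Lyz2 and Mpo, lay under 0.01 FPKM in every library. No lymphoid or fibroblast marker was detected. Of 5 mast cell markers 0 were detected on day 5 and 1 (Hdc) on day 0, and of 6 megakaryocyte markers 4 on day 5 (summed 112 to 138 FPKM) and 2 on day 0 (18.2 to 57.8 FPKM). Of 4 megakaryocyte markers that were tested 1 rose and 3 did not pass. The platelet integrin gene Itga2b rose, with 104 and 92.8 FPKM on day 5 and 15.4 and 7.32 FPKM on day 0 (log2 fold change 3.09 ± 0.35 SE, limma adjusted p = 0.0118). Pf4 had 28.1 and 13.0 FPKM on day 5 and 41.4 and 8.39 FPKM on day 0 (0.02 ± 0.77, limma adjusted p = 0.989). Ppbp was listed at 0 in every library. The part of the erythroid and megakaryocyte RNA in the results was not tested. The share of mitochondrially encoded genes was 8.46 and 10.3% of all FPKM on day 5, against 4.88 and 6.45% on day 0, and that of globin genes was 3.74 to 3.98% on day 5, against 0.134 to 0.217% on day 0. With either of these gene groups removed, the counts of called genes among the 38 were the same as with them. The sequencing depth is unknown, since FPKM do not hold the counts. In such bulk RNA a change in the share of cells that express a gene and a change in RNA per cell cannot be told apart.

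Most of the machinery stood higher on day 5. The 38 genes together made up 0.231 and 0.215% of all FPKM in the day 5 libraries, against 0.158 and 0.143% in the day 0 libraries. All 38 passed the filter of 1 FPKM in at least 2 libraries, Map1lc3a only through its day 5 libraries. In a limma fit over all 10736 genes that passed, 18 of the 38 rose and 1, Bnip3, fell at an adjusted p under 0.05, and 19 did not pass. Map1lc3a had to differ to be tested at all, and without it 17 of 37 were called higher and the median log2 fold change was 0.76. Over all tested genes 10.7% were called higher and 7.81% lower. The 38 were chosen with earlier results of these data known, so the contrast may in part reflect that choice. The median log2 fold change, day 5 minus day 0 on the log2(FPKM + 1) scale, was 0.78 for the 38 genes and 0.15 for all genes, a gap of 0.63. In 27 of the 38 both day 5 libraries lay above both day 0 libraries, in 3 both lay below, and in 8 the groups overlapped, while 40.2% of all tested genes lay fully above and 27% fully below. After quantile normalization the median of all genes was 0.01 and that of the 38 was 0.68, and 12 of the 38 were called higher and 2 lower, beside 7.58 and 8.34% of all genes. When any 1 library was left out, 0 of the 38 genes passed in limma, while 19 to 21 were higher and 2 to 3 lower at an unadjusted p under 0.05. Leaving out the filter on low values left 1 of the 38, Map1lc3b, past the threshold (limma adjusted p = 0.0448).

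**Figure D1:**
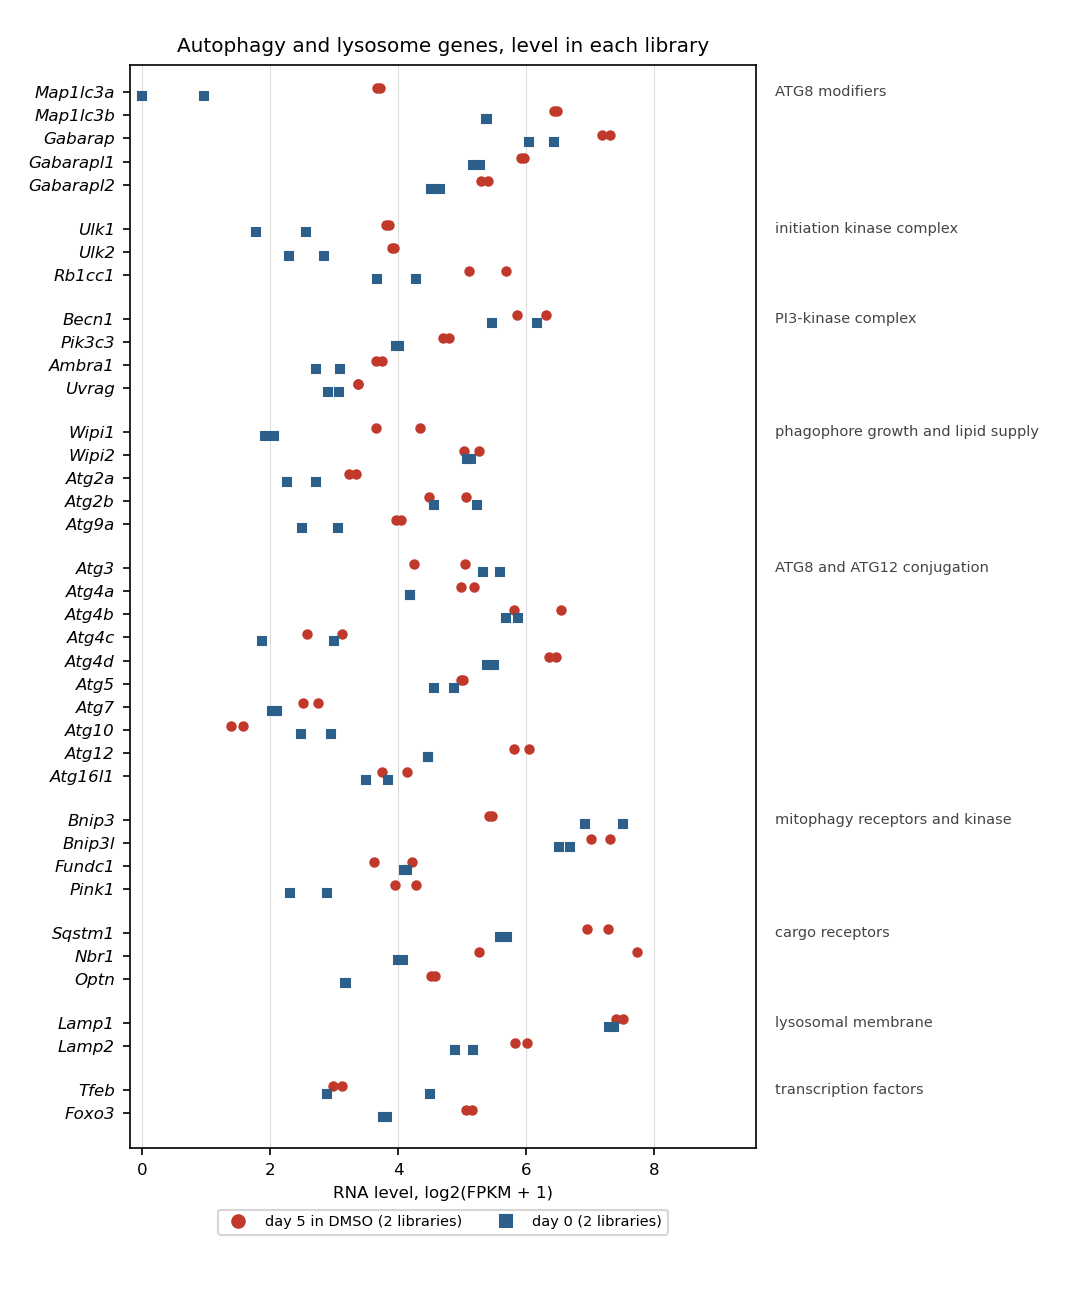
RNA level of the 38 genes in each library, as log2(FPKM + 1), ordered by role; red circles are the 2 day 5 libraries and blue squares the 2 day 0 libraries. Both day 5 points lie right of both day 0 points for 27 genes and left of them for 3 (Bnip3, Atg3 and Atg10).

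**Figure D2:**
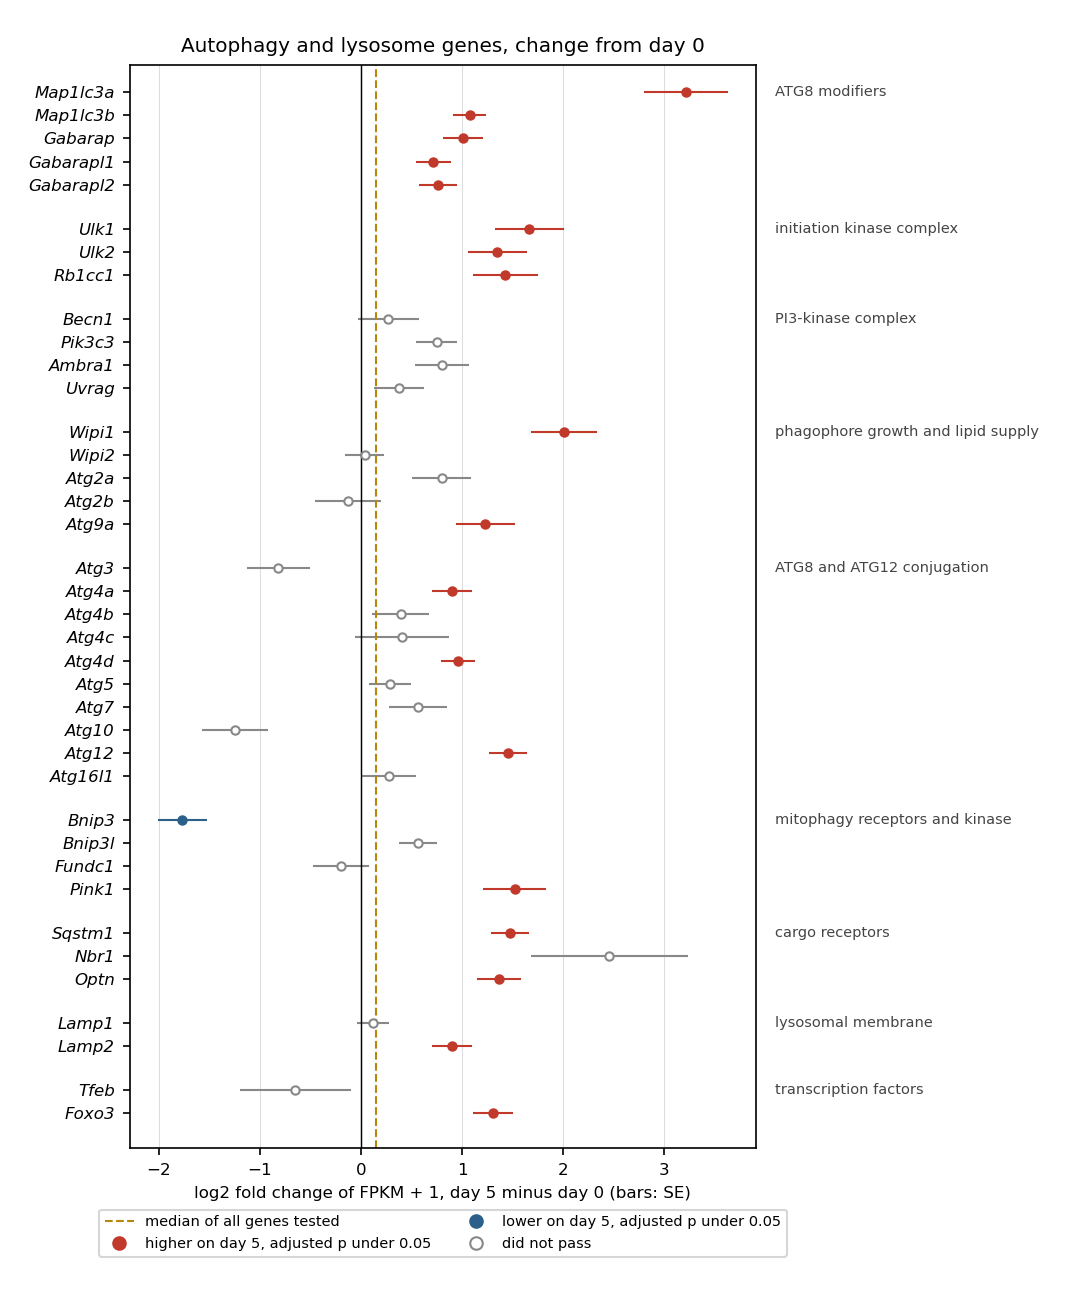
Log2 fold change of each gene, day 5 minus day 0, with its limma standard error as bars; filled symbols passed an adjusted p of 0.05 and the dashed line is the median of all tested genes, 0.15. The filled symbols are 18 increases and 1 decrease, and the widest bar is that of Nbr1. Among the 18, Map1lc3a was tested only through its day 5 libraries.

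The stretch before the gene start was read for 31 of the 38 genes from RefSeq (mouse build GRCm38.p6, 250 bases before the start, 36 windows) and searched for motifs of factors known to act on autophagy, erythroid or hypoxia genes. The motifs searched, on both strands, were CACGTG, the core of the CLEAR element bound by TFEB and its relatives, with its longer form TCACGTGA, AGATAA, bound by GATA factors, GTAAACA, bound by FOXO factors, and ACGTG, the core of the hypoxia response element, which lies inside each match of the first motif. The core CACGTG occurred in 5 windows of the 36, those of Bnip3, Lamp1, Atg3, Atg5 and Atg7, and in 6.04% of all 32536 windows. None of the 15 rising genes with a window had it, and so few genes cannot be set apart from that share of all windows. TCACGTGA occurred at Atg3 alone and in 0.793% of all windows. AGATAA occurred in 2 windows of the 36, those of Atg4d and Atg4a, and in 9.97% of all windows. Both genes rose, as did 15 of the 31 genes with a window. GTAAACA occurred in 0 windows of the 36 and in 3.17% of all windows. ACGTG occurred in 12 windows of the 36 and in 16.7% of all windows. Of the 12 genes with ACGTG 4 rose, 1 fell and 7 did not pass. A match describes the letters only, and a missing match says nothing about the factor.
The windows of 5 genes are shown: the gene that fell, a pair that did not pass and a pair that rose. The pair that did not pass, Lamp1 and Atg3, is not typical of such genes. CACGTG occurred at 4 genes that did not pass, and the others of them with a window lacked it. Capitals mark the motifs, and each window runs 5′ to 3′ on the strand of the gene. They lie at chr7:138909507-138909756 (minus strand) for Bnip3, chr8:13158911-13159160 (plus) for Lamp1, chr16:45158579-45158828 (plus) for Atg3, chr9:21265035-21265284 (plus) for Atg4d and chr11:109611390-109611639 (minus) for Wipi1.
Bnip3: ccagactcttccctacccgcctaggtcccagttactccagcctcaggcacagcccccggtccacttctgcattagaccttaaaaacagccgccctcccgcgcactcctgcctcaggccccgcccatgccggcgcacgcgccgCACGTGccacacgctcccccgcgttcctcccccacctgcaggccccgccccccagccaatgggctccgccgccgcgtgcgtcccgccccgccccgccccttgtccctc
Lamp1: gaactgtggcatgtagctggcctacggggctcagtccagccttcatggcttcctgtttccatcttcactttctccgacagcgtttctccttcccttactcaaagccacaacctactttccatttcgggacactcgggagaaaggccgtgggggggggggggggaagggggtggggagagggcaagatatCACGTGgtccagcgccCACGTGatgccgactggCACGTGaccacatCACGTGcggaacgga
Atg3: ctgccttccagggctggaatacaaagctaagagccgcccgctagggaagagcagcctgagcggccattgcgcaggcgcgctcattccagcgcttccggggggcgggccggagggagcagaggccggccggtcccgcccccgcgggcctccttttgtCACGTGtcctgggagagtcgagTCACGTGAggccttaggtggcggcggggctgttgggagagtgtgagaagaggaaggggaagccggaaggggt
Atg4d: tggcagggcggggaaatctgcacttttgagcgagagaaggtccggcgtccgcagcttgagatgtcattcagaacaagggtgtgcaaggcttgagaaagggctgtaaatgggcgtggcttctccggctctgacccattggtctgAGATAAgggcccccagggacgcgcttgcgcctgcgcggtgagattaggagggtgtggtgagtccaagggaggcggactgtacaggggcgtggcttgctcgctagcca
Wipi1: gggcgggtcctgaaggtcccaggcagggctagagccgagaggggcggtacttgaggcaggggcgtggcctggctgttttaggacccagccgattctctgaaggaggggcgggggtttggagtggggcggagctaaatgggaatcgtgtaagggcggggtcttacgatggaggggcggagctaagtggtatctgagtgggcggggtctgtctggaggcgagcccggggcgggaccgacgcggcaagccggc
The Bnip3 window held 1 CACGTG, the Lamp1 window 4 and the Atg3 window 2, of which 1 was the longer TCACGTGA. The Atg4d window held 1 AGATAA, and the Wipi1 window held none of these motifs. The share of G and C was 72.4% at Bnip3, 59.6% at Lamp1, 68% at Atg3, 60.4% at Atg4d and 67.2% at Wipi1.

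The ATG8 modifiers are the ubiquitin-like proteins that coat the phagophore and catch cargo. The genes of 4 of the 5 rose, beside Map1lc3a, whose place in the test rests on day 5. Of all tested genes 10.7% were called higher. Map1lc3b, which encodes the LC3 form most used as a marker of autophagosomes, had 88.6 and 85.8 FPKM on day 5, against 41.0 and 40.6 FPKM on day 0 (log2 fold change 1.08 ± 0.16 SE, limma adjusted p = 0.019). Map1lc3a had 12.2 and 11.8 FPKM on day 5, against 0.956 FPKM and a listed 0 on day 0. Its log2 fold change was 3.21 with a pseudocount of 1, 5.22 with 0.1 and 1.64 with 5, so its size depends on that setting, and no test is given because only day 5 carried it past the filter. Gabarap, the most abundant of the family in every library, had 145 and 158 FPKM on day 5 and 85.7 and 65.1 FPKM on day 0 (1.01 ± 0.20, limma adjusted p = 0.0315). Gabarapl1 (0.72 ± 0.17, limma adjusted p = 0.0443) and Gabarapl2 (0.76 ± 0.19, limma adjusted p = 0.0482) stood nearest to the threshold. Gabarapl2 did not pass after quantile normalization (limma adjusted p = 0.0679), and a pseudogene that RefSeq lists for it may share its reads.

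Summed over the 5 genes, ATG8 RNA reached 345 and 357 FPKM on day 5, against 190 and 163 FPKM on day 0. The order of the levels, Gabarap, Map1lc3b, Gabarapl1, Gabarapl2, Map1lc3a, was the same in all 4 libraries. Gabarap made up 41.9 and 44.3% of the sum on day 5 and 45.1 and 40.0% on day 0, and Map1lc3b 25.6 and 24.0% on day 5 and 21.6 and 24.9% on day 0, so for these genes the days overlap. The share of Gabarapl1 was 17.8 and 16.7% on day 5, against 19.9 and 21.7% on day 0. That of Gabarapl2 was 11.1 and 11.6% on day 5, against 12.8 and 13.4% on day 0, so both shares lay lower on day 5. The share of Map1lc3a was 3.53 and 3.29% on day 5, against 0.503 and 0% on day 0.

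**Figure D3:**
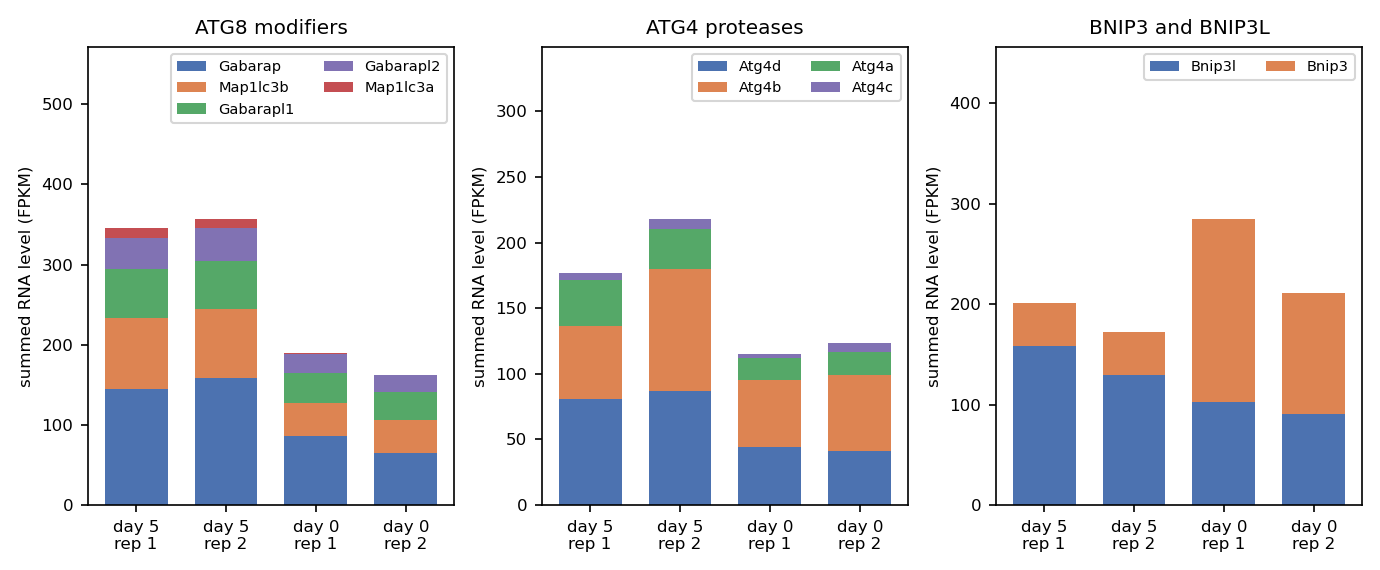
Summed FPKM of the ATG8 genes, the ATG4 protease genes and the pair Bnip3 and Bnip3l in each library, stacked by gene, with day 5 left of day 0. The ATG8 and ATG4 sums are higher in both day 5 libraries, while Bnip3 is the smaller part of its pair in both day 5 libraries and the larger part in both day 0 libraries.

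Of the kinase complex that starts autophagy, the 3 genes among the 38 rose, beside 10.7% of all tested genes. Of its other subunits in the further lists Atg13 rose (log2 fold change 0.92, limma adjusted p = 0.0467) and Atg101 did not pass (0.75, limma adjusted p = 0.0531). Ulk1, the main starting kinase, had 13.1 and 13.6 FPKM on day 5, against 4.89 and 2.44 FPKM on day 0 (log2 fold change 1.67 ± 0.34 SE, limma adjusted p = 0.0347). Its day 5 libraries lie close together, while its day 0 libraries differ by a factor of 2.00. Ulk2, its close relative, had 14.0 and 14.3 FPKM on day 5 and 6.18 and 3.93 FPKM on day 0 (1.35 ± 0.29, limma adjusted p = 0.0377). Rb1cc1 (FIP200), the scaffold of the complex, had 33.6 and 50.7 FPKM on day 5 and 11.7 and 18.4 FPKM on day 0 (1.43 ± 0.32, limma adjusted p = 0.0394). Ulk2 (limma adjusted p = 0.0558) and Rb1cc1 (0.0627) did not pass after quantile normalization.

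None of the 4 genes of the lipid kinase complex and its partners passed, beside 18.5% of all tested genes that passed in either direction. With so few genes this count cannot set the complex apart from all genes. Pik3c3 (VPS34), the kinase itself, came nearest, at 24.9 and 26.7 FPKM on day 5 and 14.7 and 15.2 FPKM on day 0 (log2 fold change 0.75 ± 0.20 SE, limma adjusted p = 0.0559), and it passed when only genes at 5 FPKM or more were tested (limma adjusted p = 0.0475). Ambra1, which links Beclin 1 to its regulators, had 12.5 and 11.6 FPKM on day 5 and 7.57 and 5.58 FPKM on day 0 (0.80 ± 0.27, limma adjusted p = 0.0886). Uvrag, a subunit of the endosomal form, had 0.37 ± 0.25 (limma adjusted p = 0.316). Becn1 (Beclin 1), the core subunit, was as variable within a day as between days, at 57.3 and 78.8 FPKM on day 5 and 71.1 and 43.4 FPKM on day 0. Whether the change of this complex differs from that of the ULK genes was not tested.

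Among the genes that let the phagophore grow, 2 of 5 rose, beside 10.7% of all tested genes. Wipi1, which binds the lipid that VPS34 makes, had 11.6 and 19.3 FPKM on day 5, against 3.18 and 2.77 FPKM on day 0 (log2 fold change 2.01 ± 0.33 SE, limma adjusted p = 0.0222). Its relative Wipi2, which recruits the conjugation machinery, had 37.6 and 31.6 FPKM on day 5 and 32.8 and 34.3 FPKM on day 0, and the days overlap (0.04 ± 0.19, limma adjusted p = 0.902, and -0.049 after quantile normalization). In every library Wipi2 lay above Wipi1 in FPKM. Atg9a, the membrane protein of the vesicles that seed the phagophore, had 14.7 and 15.5 FPKM on day 5 and 7.31 and 4.66 FPKM on day 0 (1.23 ± 0.29, limma adjusted p = 0.0437), and it did not pass after quantile normalization (limma adjusted p = 0.0679). Of the lipid transfer proteins, Atg2a had 0.80 ± 0.29 (limma adjusted p = 0.108) with both day 5 libraries above day 0, and Atg2b had -0.13 ± 0.33 (limma adjusted p = 0.794) with overlapping days.

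Of the 10 conjugation genes 3 rose, beside 10.7% of all tested genes. They were Atg12, the ubiquitin-like partner of ATG5, and Atg4d and Atg4a. Atg4d and Atg4a encode proteases that trim the ATG8 proteins before and after they are attached to lipid. Atg12 had 65.1 and 55.3 FPKM on day 5, against 21.2 and 21.2 FPKM on day 0 (log2 fold change 1.46 ± 0.19 SE, limma adjusted p = 0.014). Atg4d had 80.9 and 87.2 FPKM on day 5 and 44.4 and 41.1 FPKM on day 0 (0.96 ± 0.17, limma adjusted p = 0.0249), and Atg4a, for which RefSeq lists a pseudogene, had 35.4 and 30.7 FPKM on day 5 and 17.3 and 17.2 FPKM on day 0 (0.90 ± 0.20, limma adjusted p = 0.0388). After quantile normalization Atg4a did not pass (limma adjusted p = 0.0625). Atg4b, the protease with the widest action on ATG8 proteins, had 55.3 and 92.5 FPKM on day 5 and 50.6 and 58.0 FPKM on day 0, so the days overlap. Summed over the 4 protease genes the level was 176 and 218 FPKM on day 5, against 115 and 123 FPKM on day 0. The Atg4b share of that sum was 31.3 and 42.4% on day 5, against 44.0 and 47.0% on day 0. Atg4c had 4.94 and 7.69 FPKM on day 5, against 2.67 and 6.97 FPKM on day 0, and its day 0 libraries differ by more than its days do.

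The other conjugation genes did not pass. Atg7, the activating enzyme of both systems, had a log2 fold change of 0.56 ± 0.29 SE (limma adjusted p = 0.209), Atg5 one of 0.29 ± 0.21 (0.352) and Atg16l1, which places the ATG12-ATG5 pair on the membrane, one of 0.28 ± 0.27 (0.485; its value was -0.000668 after quantile normalization). The enzymes that carry ATG8 and ATG12 had lower values on day 5. Atg3, the carrier of ATG8, had 18.1 and 32.0 FPKM on day 5, against 39.4 and 47.3 FPKM on day 0 (-0.82 ± 0.31, limma adjusted p = 0.118). Atg10, the carrier of ATG12, had 1.62 and 1.96 FPKM on day 5, against 4.61 and 6.74 FPKM on day 0 (-1.24 ± 0.33, limma adjusted p = 0.0546). Neither passed, although in both genes the day 5 libraries lie wholly below the day 0 libraries. Atg10 did pass after quantile normalization (-1.51, limma adjusted p = 0.0438) and without the variance trend of limma (limma adjusted p = 0.043).

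Among the mitophagy genes 1 fell and 1 rose, beside 7.81% lower and 10.7% higher of all tested genes. Bnip3, a receptor on the outer mitochondrial membrane that hypoxia is known to induce, was the only gene of the 38 that fell, with 42.1 and 43.5 FPKM on day 5, against 182 and 120.4 FPKM on day 0 (log2 fold change -1.77 ± 0.24 SE, limma adjusted p = 0.0154). Its mean on day 5 was 0.283 times that on day 0. Its relative Bnip3l had 158 and 129 FPKM on day 5 and 103 and 90.4 FPKM on day 0, and did not pass (0.56 ± 0.19, limma adjusted p = 0.0865), although both day 5 libraries lie above both day 0 libraries. RefSeq lists a pseudogene for Bnip3l that may share its reads. The ratio of Bnip3l to Bnip3 FPKM was 3.76 and 2.96 on day 5, against 0.564 and 0.75 on day 0. It stood at 3.36 ± 0.57 on day 5 and 0.657 ± 0.132 on day 0 (SD, n = 2 each; two-sided exact permutation p = 0.333 on the log2 ratio, the smallest that 2 against 2 allows). Bnip3l made up 79.0 and 74.8% of the pair on day 5 and 36.0 and 42.9% on day 0, while the sum of the pair was 201 and 172 FPKM on day 5 and 285 and 211 FPKM on day 0.

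Pink1, the kinase that marks damaged mitochondria, had 18.4 and 14.5 FPKM on day 5, against 3.95 and 6.38 FPKM on day 0 (log2 fold change 1.52 ± 0.31 SE, limma adjusted p = 0.0335; 0.0653 after quantile normalization). Park2 (Parkin), the ubiquitin ligase that acts with PINK1 and a gene outside the 38, had 1.38 and 2.69 FPKM on day 5 and was listed at 0 in both day 0 libraries. Fundc1, another receptor of the outer membrane, had 11.3 and 17.6 FPKM on day 5 and 16.1 and 16.5 FPKM on day 0, and the days overlap (-0.19 ± 0.28, limma adjusted p = 0.638).

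Of the cargo receptors, Sqstm1 (p62), which binds ubiquitin-tagged protein, had 154 and 124 FPKM on day 5, against 51.2 and 47.3 FPKM on day 0 (log2 fold change 1.47 ± 0.19 SE, limma adjusted p = 0.014). Optn (optineurin), a ubiquitin-binding receptor that takes part in mitophagy, had 21.8 and 23.0 FPKM on day 5 and 8.03 and 8.09 FPKM on day 0 (1.37 ± 0.22, limma adjusted p = 0.0206). Nbr1, a relative of p62 in function, had 212 and 37.3 FPKM on day 5 and 15.9 and 15.0 FPKM on day 0. Both day 5 libraries lie above day 0, but replicate 1 alone sets the size of the difference: the log2 fold change was 2.46 ± 0.78 with all libraries (limma adjusted p = 0.08), 1.22 without day 5 replicate 1 and 3.69 without day 5 replicate 2.

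Of the LAMP glycoprotein genes of the lysosomal membrane, Lamp2 rose and Lamp1 did not pass. Lamp2, needed for the fusion and maturation of autophagosomes, had 64.1 and 56.1 FPKM on day 5, against 28.8 and 34.9 FPKM on day 0 (log2 fold change 0.90 ± 0.20 SE, limma adjusted p = 0.0382). Lamp1 had 182 and 168 FPKM on day 5 and 157 and 165 FPKM on day 0, close to the median of all genes (0.12 ± 0.15, limma adjusted p = 0.602). Lamp1 was the gene of the 38 with the highest mean level on day 5 and also on day 0. The window before its start held 4 CACGTG cores, and whether these bear on its level was not tested.

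Foxo3, a transcription factor that in mouse erythroid cells is known to drive autophagy and antioxidant genes, had 32.3 and 34.6 FPKM on day 5, against 12.6 and 13.2 FPKM on day 0 (log2 fold change 1.30 ± 0.20 SE, limma adjusted p = 0.0192). Tfeb, the best known activator of lysosomal genes, had 6.86 and 7.74 FPKM on day 5, against 21.7 and 6.44 FPKM on day 0 (-0.65 ± 0.55, limma adjusted p = 0.423). Its direction rests on day 0 replicate 1, without which it was 0.16. Of 4 other tested genes of these families Foxo4 rose, with 27.4 and 26.8 FPKM on day 5 and 14.5 and 10.6 FPKM on day 0 (1.07 ± 0.24, limma adjusted p = 0.039), and the other 3 did not pass. After quantile normalization 0 of these 4 passed in limma (1 was higher and 0 lower at an unadjusted p under 0.05). In the main fit 10.7% of all tested genes were called higher.

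The 8 lists of further autophagy, lysosome and nutrient sensing genes held 176 genes, of which 175 were in the table and 158 were tested. Of these, 34 rose (21.5%), 6 fell (3.8%) and 118 did not pass, beside the 10.7 and 7.81% of all genes, and their median log2 fold change was 0.52. After quantile normalization 22 were called higher and 7 lower, beside 7.58 and 8.34% of all genes. In the list of other autophagy machinery 4 of 23 rose and 2 fell, and after quantile normalization 1 was called higher and 2 lower. Wdr45, which encodes a relative of the WIPI proteins, had 41.6 and 59.7 FPKM on day 5, against 7.24 and 7.30 FPKM on day 0 (log2 fold change 2.62 ± 0.25 SE, limma adjusted p = 0.00866). Plekhm1, an adaptor between lysosomes and autophagosomes, had 1.33. Vamp8, a fusion protein of autophagosomes and lysosomes, had -1.05. Atg9b had 0.937 and 0.692 FPKM on day 5 and 3.82 and 4.25 FPKM on day 0, so it was tested through its day 0 libraries alone, and without it 1 gene of this list fell.

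Of 18 further genes of selective autophagy and mitophagy, 4 rose and 1 fell, beside 10.7% higher and 7.81% lower of all tested genes. Mfn2 and Mfn1, which fuse mitochondria and are targets of PINK1 and Parkin, had log2 fold changes of 1.24 and 1.14. Phb2, an inner membrane protein that has been described as a mitophagy receptor, had 342 and 306 FPKM on day 5, against 1155 and 851 FPKM on day 0 (-1.61 ± 0.21 SE, limma adjusted p = 0.0147). Phb2 is also known as a structural protein of the inner membrane.

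For the lysosome itself, 7 of 35 genes of hydrolases and their activators rose and 1 fell. Acp5, an acid phosphatase, had 68.3 and 55.1 FPKM on day 5, against 3.06 and 4.28 FPKM on day 0 (log2 fold change 3.75 ± 0.25 SE, limma adjusted p = 0.00504), and Pld3 had 1.67. Gaa, which breaks down glycogen in the lysosome, had -0.93 and stood near the threshold (limma adjusted p = 0.0493). Of 17 genes of the V-ATPase, the pump that acidifies the lysosome, 6 rose and 0 fell in the limma fit (0 also at an unadjusted p under 0.05), with Atp6ap1 at 1.67 and Atp6v1a, the catalytic subunit, at 1.50. Of 23 genes of lysosomal membrane and sorting proteins, 6 rose, led by the ion channel gene Tmem175 (1.59) and the cystine exporter gene Ctns (1.49), and Laptm5 fell (-0.87). After quantile normalization 2 of these 23 were called higher, beside 7.58% of all genes. Among 13 genes of tethering and fusion 0 rose in the limma fit (3 at an unadjusted p under 0.05) and Arl8b, which moves lysosomes outward, fell (-0.86). The shares of all tested genes, beside which these list counts stand, were 10.7% higher and 7.81% lower.

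Of 25 genes of mTORC1, AMPK and nutrient sensing, 6 rose and 0 fell in the limma fit (1 at an unadjusted p under 0.05). Of all tested genes 10.7% were called higher and 7.81% lower. mTORC1 holds autophagy down when nutrients are plentiful, and AMPK activates it. Sesn3, a sestrin that restrains mTORC1, had 34.7 and 27.9 FPKM on day 5, against 3.11 and 4.92 FPKM on day 0 (log2 fold change 2.70 ± 0.29 SE, limma adjusted p = 0.0107). Prkab1, a regulatory subunit of AMPK, had 1.66.

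**Figure D4:**
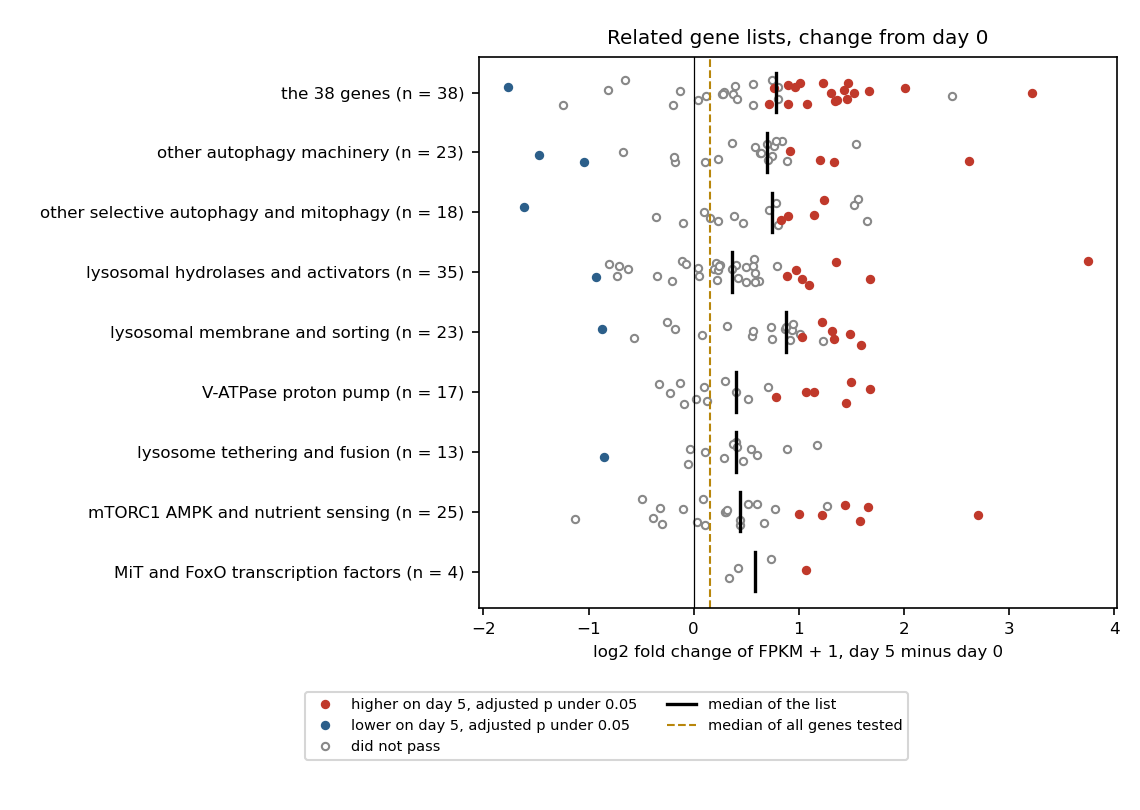
Log2 fold change, day 5 minus day 0, of every tested gene in the 38 and in the 8 further lists; black bars are list medians and the dashed line is the median of all tested genes, 0.15. The median of each list lies right of the dashed line, from 0.36 for the hydrolases to 0.88 for membrane and sorting genes.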

How the data were processed

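RNA of MEL cells was measured by stranded RNA-seq at day 5 and day 0, with 2 biological replicates each. The authors deposited 1 table of FPKM values per gene, so lengths and library totals were already divided out and read counts, and thus counting errors, cannot be had. Per the submitters' processing notes Bowtie and the mouse build mm9 belong to the RNA libraries, and the quantifier and annotation are not given in the sources used here. From the deposited FPKM values log2(FPKM + 1) was computed here. Genes at 1 FPKM or more in at least 2 libraries (10736 of 26599) were fitted with limma 3.58.1 in R 4.3.3 (lmFit with a day term, eBayes with trend). P-values are two-sided with Benjamini-Hochberg adjustment over all these genes, and an adjusted p under 0.05 was called. Fold changes understate low genes because of the pseudocount of 1. The fit was also run on a simulated set of 10736 genes, where 100 were given a log2 change of 1 and 100 a log2 change of 2. The changed genes were drawn only from those with the highest mean levels, so low genes were not covered. It found 29 of the smaller changes and 98 of the larger ones, with 10 false calls. Far fewer genes were changed there than the 1989 called in the real libraries, and the adjustment is stricter when fewer genes change. These rates therefore do not carry over to the real libraries, where changes near 1 may still be missed at an unknown rate.

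The 38 genes, the further lists and the markers were chosen with earlier results of these data known. Every one of the 38 is given; of each further list up to 2 called genes with the largest and up to 2 with the smallest log2 fold change are named. Alternatives were the pseudocount, the filter, quantile normalization, removal of mitochondrial or globin genes, no variance trend, a replicate block and leaving out each library. Promoter windows are those of RefSeq on GRCm38.p6. The peak and interaction files were not used here, since their regions are on mm9 and carry no gene names, and gene positions on that build were not at hand.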

Additional observations from a re-analysis of the deposited data

How the results depend on the processing

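Directions of the 19 called genes were the same under all 13 alternatives, but the calls were not. In each of the 19 the day 5 libraries lie wholly above or wholly below the day 0 libraries. The pseudocount, the filter, the trend, the block and leaving out 1 library therefore could not reverse a direction. Only quantile normalization and the removal of mitochondrial or globin genes could have done so. The 19 include Map1lc3a, which passed the filter only through its day 5 libraries. Leaving out 1 library gave 0 to 0 genes called higher among the 38 and 0 to 0 lower, 0 to 0 of the further lists in either direction, and 0 to 2 higher and 0 to 11 lower over all genes. Without the filter 120 genes were called higher and 117 lower in all, 1 and 0 among the 38, and 2 and 0 in the further lists. Quantile normalization called 2 of the 38 lower and 22 of the further lists higher, and the fit without a trend called 12 of the 38 higher and 2 lower, and 27 of the further lists higher and 3 lower; 13 of the 19 called genes passed in it, as after quantile normalization. That fit called 4 of 35 hydrolase genes higher. The largest number among the 38 was 19 higher, with the filter at 5 FPKM. With the replicate number as a block 13 of the 38 were called higher and 1 lower. In that fit 1 of 23 genes of other autophagy machinery and 2 of 23 of lysosomal membrane and sorting were called higher. The main fit had no block because nothing says that the replicate numbers pair the days. As a check, same-numbered libraries deviated together with a correlation of 0.048. Genes that changed sign were all uncalled, which was fixed in advance for the runs with 1 library left out. After quantile normalization these were Wipi2 (-0.049) and Atg16l1 (-0.000668). With 1 library left out the log2 fold change ranged from -0.0786 to 0.619 for Becn1, from -0.0829 to 0.160 for Wipi2, from -0.470 to 0.207 for Atg2b, from -0.150 to 0.967 for Atg4c, from -0.494 to 0.104 for Fundc1 and from -1.45 to 0.156 for Tfeb. The cause was not tested. With the depth unknown, the precision of low values, such as those of Atg10 or of Map1lc3a on day 0, rests on 2 libraries a day.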
